A study of Mus musculus with 6 samples.

Results

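The genes described here encode 9 surface proteins that steer lymphocytes between blood and tissue. They are S1pr1, Ccr7, Ccr9 and Cxcr4 (receptors for attractants), Selplg (a selectin ligand) and the integrin chains Itgal, Itgb2, Itga4 and Itgb7. The members were taken by name from the table's gene column, and all 9 were found among its 13185 rows. The samples were mouse leukaemia cells of the T lineage, labelled Notch1 T-ALL (T-cell acute lymphoblastic leukaemia) and oncogenic lymphocytes; activation of the receptor Notch1 is a common lesion of that disease. In both groups they were grown on plates coated with antibody 145-2C11 to CD3 (2.5 ug/mL), part of the T cell receptor complex, with the growth factor IL-2 (100 U/mL). In 3 libraries the cells had been given 25 nM panobinostat, an inhibitor of histone deacetylases, for 2 h, and 3 libraries came from cells left untreated. The labels named neither the mouse strain nor the way Notch1 was activated. Nor did they tell if separate cultures or animals lay behind the 3 libraries in each group, so the p-values measure the spread between these libraries, which may be technical.

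Lymphocytes leave the blood in steps. Selectins catch carbohydrate ligands such as those on PSGL-1, the product of Selplg, and the cell rolls; chemokines then signal through G protein-coupled receptors; and integrins, each a pair of one alpha and one beta chain, hold the cell to ICAM, VCAM or MAdCAM proteins on the vessel wall. Exit from lymphoid organs follows the lipid sphingosine 1-phosphate through S1PR1. CXCR4 and its ligand CXCL12 retain developing T cells and leukaemia cells in marrow and thymus, CCR7 guides T cells to lymph nodes, and CCR9 and the integrin alpha4beta7 guide them to the gut.

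The 2 chemokine receptor genes among the members that fell, Cxcr4 and Ccr9, are shown by sequence before an annotated transcription start, from RefSeq (build GRCm38.p6). Ccr9 had only an estimated 4 to 5 reads per treated library and was tested only through its higher untreated values. RefSeq promoters existed for 4 members (Cxcr4, Ccr9, Itga4 and Itgb7), so Selplg, which also fell, could not be shown. Which start gave the counted RNA was not measured, and the annotated Ccr9 gene begins further upstream, at 123678439. Capitals mark matches, on either strand, to 3 short motifs: the GC box GGGCGG, the CACCC box CACCC and the E-box CANNTG. The Cxcr4 stretch is chr1:128592300-128592549 (minus strand), and the Ccr9 stretch is chr9:123766961-123767168 (plus strand), which ends where an annotated exon of another Ccr9 transcript begins.
Cxcr4: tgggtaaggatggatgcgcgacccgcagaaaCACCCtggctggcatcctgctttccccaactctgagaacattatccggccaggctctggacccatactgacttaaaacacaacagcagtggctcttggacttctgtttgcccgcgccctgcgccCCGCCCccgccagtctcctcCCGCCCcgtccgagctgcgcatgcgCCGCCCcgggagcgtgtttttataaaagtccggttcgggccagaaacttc
Ccr9: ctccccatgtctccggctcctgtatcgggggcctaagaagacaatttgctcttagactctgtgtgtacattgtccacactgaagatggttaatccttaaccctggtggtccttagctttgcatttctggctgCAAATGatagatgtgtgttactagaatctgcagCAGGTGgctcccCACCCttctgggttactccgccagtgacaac
In the 250 bases before the start, Cxcr4 held 3 GC boxes, 1 CACCC box and 0 E-boxes, and Ccr9 held 0 GC boxes, 1 CACCC box and 2 E-boxes. Among 32851 mouse promoter windows of that length, 32.7% held a GC box, 52% a CACCC box and 66.2% an E-box, so each of these matches is common. GC content was 61.2% for Cxcr4 and 50.4% for Ccr9 against a median of 52.4%, and CpG dinucleotides numbered 19 and 3 against a median of 6. The 2 windows thus had no motif in common beyond the CACCC box and differed widely in CpG number. A match is a stretch of letters only, and no binding was measured.

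From the steps between tied low values, each library was estimated to hold between 5990000 and 7720000 reads. Values are log2 CPM (log2 of read counts scaled to library size) and looked quantile normalized between libraries, so that a shift of all genes one way could not be seen. Of 12554 genes tested, 38.3% passed the threshold used throughout (limma, Benjamini-Hochberg adjusted p below 0.05), 19.2% by rising and 19% by falling. Untreated library 1 lay closer to the treated libraries on the first principal component than the other two untreated libraries did (25.7 against 48 and 41, with treated libraries at -43.2 to -35.4). Markers of several lineages were present. All 16 T lineage markers had a row (1 rose and 8 fell), and their summed level was 1631 to 1669 CPM in treated and 2084 to 2214 CPM in untreated libraries. The 16 of 17 myeloid and neutrophil markers with a row (Cd14 had none; 0 rose and 6 fell of 15 tested) summed to 1258 to 1370 and 1566 to 1750 CPM, the 9 of 10 B lineage markers (no row for Pax5; 0 rose, 3 fell) to 398.8 to 435.2 and 409.4 to 447.2 CPM, and the 9 of 10 erythroid markers (no row for Ahsp; 1 rose and 5 fell, but only 1 fell without treated library 2, treated library 3 or untreated library 3, and 2 without untreated library 2) to 6363 to 6770 and 6779 to 8053 CPM. For stroma and endothelium 4 of 7 markers had a row, Col1a1, Col1a2 and Cdh5 being without (65.3 to 85.6 and 92.6 to 127.6 CPM; 0 rose and 1, Pecam1, fell of 3 tested, with a median log2 fold change of 0.61), and for natural killer cells 0 of 6. Myeloid and B cells also express several of the homing genes, Cxcr4, Selplg, Itgb2 and Itga4 among them. The part of these cells in the members' changes was not tested, and in bulk RNA fewer cells of a type and less RNA per cell cannot be told apart.

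After 2 h of panobinostat 3 of the 9 homing genes fell and 0 rose: the chemokine receptor genes Cxcr4 and Ccr9 and the selectin ligand gene Selplg fell. That is 33.3% of the members, near the 38.3% of all tested genes, so the number of changed members was not high for these cells. The direction was less even, with 7 of 9 log2 fold changes below 0 and a median of -0.37, beside 50.4% below 0 and a median of -0.0052 over all tested genes. Groups did not overlap for 4 members (Cxcr4, Ccr9, Selplg and Itgb7), all lower in treated cells, where 51.4% of all tested genes did not overlap and 25.7% did not overlap with treated cells lower. A called change of at least 2-fold was seen for 1 member and for 10.3% of all tested genes. That member, Ccr9, reached the minimum level for testing only through its untreated libraries.

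**Figure D1:**
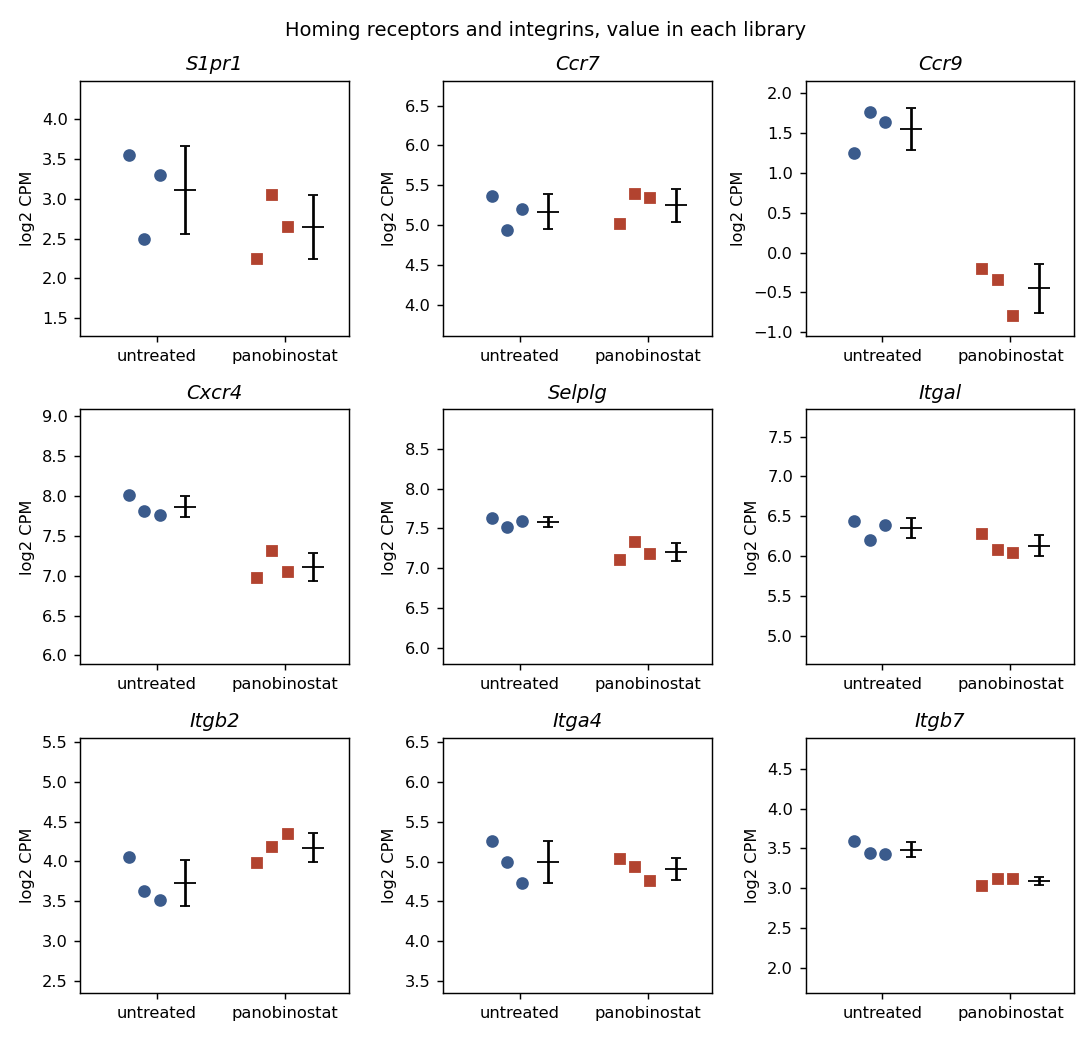
Values of the 9 homing genes in each library (log2 CPM, vertical axes all spanning the same number of log2 units), untreated as circles and panobinostat as squares, with the mean and SD of each group in black. The groups are apart for Cxcr4, Ccr9, Selplg and Itgb7 and overlap for the other 5.

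**Figure D2:**
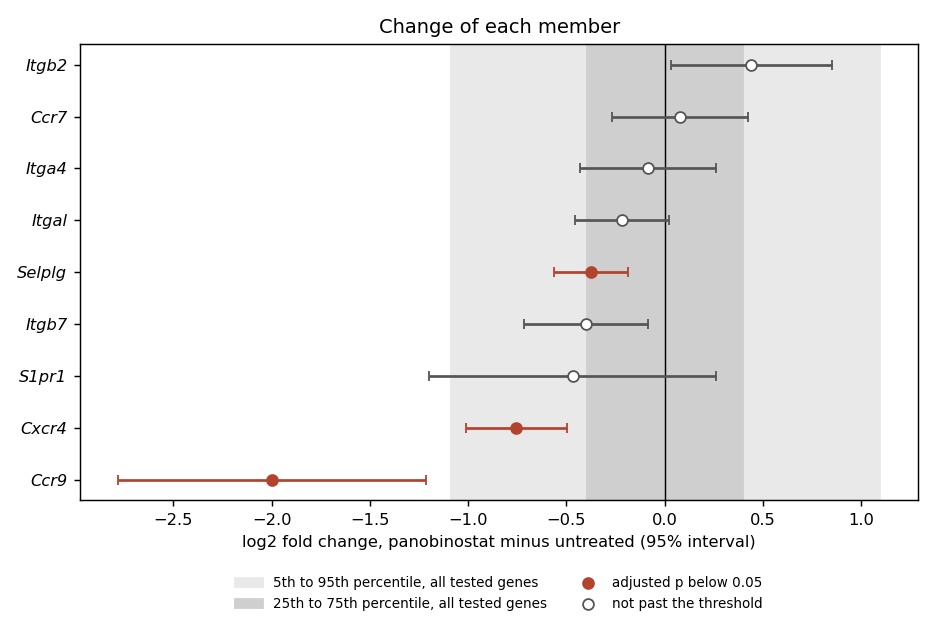
Log2 fold change of each homing gene, panobinostat minus untreated, with its 95% interval from limma; filled points passed an adjusted p of 0.05, and grey bands give percentiles of all tested genes. Ccr9, at -2.00, lies below the 5th percentile of all genes (-1.09), while Cxcr4 and Selplg lie within the 5th to 95th percentile.

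Cxcr4, the receptor for CXCL12, was well expressed and fell. It stood at 6.98, 7.31 and 7.04 log2 CPM in treated libraries 1 to 3 and at 8.01, 7.81 and 7.76 in untreated libraries 1 to 3. Every treated library was below every untreated one, and the gap between the groups was wider than the range within either. The means were 7.11 ± 0.18 and 7.86 ± 0.13 log2 CPM (SD, n = 3), a log2 fold change of -0.75 (SE 0.11, limma adjusted p = 0.00213), or a level that fell by 40.7% (95% interval -50.3% to -29.2%). An estimated 754 to 1071 reads per treated and 1430 to 1993 per untreated library stood behind these values. The gene (ENSMUSG00000045382.6) lies on chromosome 1 from 128588199 to 128592293, and no other annotated gene overlaps it.

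Ccr9, the receptor for the gut and thymus chemokine CCL25, had the largest change of the 9 but was barely expressed. Its values were -0.21, -0.34 and -0.79 log2 CPM in treated libraries and 1.25, 1.77 and 1.64 in untreated libraries. In linear terms that was 0.58 to 0.87 CPM against 2.39 to 3.40 CPM, with the groups far apart. The means were -0.45 ± 0.31 and 1.55 ± 0.27 log2 CPM (SD, n = 3), and the log2 fold change was -2.00 (SE 0.34, limma adjusted p = 0.00364). The treated mean was under the minimum mean of 0 set for testing, so Ccr9 was tested only through its higher untreated values. With no such minimum its log2 fold change was again -2.00 (limma adjusted p = 0.00398). Only an estimated 4 to 5 reads per treated library and 19 to 22 per untreated library were counted. Summed over libraries, 14 against 61 estimated reads gave a ratio of 0.24 per read sequenced (exact 95% interval 0.12 to 0.43, counting error only). With a pseudocount of 1 CPM the log2 fold change was -1.18 and still passed (limma adjusted p = 0.00312). The gene (ENSMUSG00000029530.16; chromosome 9, 123678439 to 123784330) spans several others in the annotation. One of these on the opposite strand, Lztfl1, has its own value in this table and rose (1.51 on the log2 scale, SE 0.16, limma adjusted p = 0.000716). The strand setting of the counting was not given in the sources used here. Whether exons of Ccr9 and Lztfl1 overlap was not checked, so it is not known if reads of one gene were counted for the other. Where Ccr9's last exon ends, another opposite-strand gene model lies, which had no value in this table. Lztfl1 does not lie within 500 bases of that end, and its part in the Ccr9 value was not tested.

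Selplg, whose product PSGL-1 binds selectins, fell by the smallest amount of the 3. It was at 7.11, 7.32 and 7.18 log2 CPM in treated and at 7.64, 7.51 and 7.59 in untreated libraries, again without overlap. The means were 7.21 ± 0.11 and 7.58 ± 0.063 log2 CPM (SD, n = 3), a log2 fold change of -0.37 (SE 0.08, limma adjusted p = 0.00994), or a level that fell by 22.8% (95% interval -32.4% to -12.0%). Its residual SD of 0.089 was lower than that of most genes (percentile 12.4; median of all tested genes 0.19). Estimated reads ran from 828 to 1538 per library. Selplg (ENSMUSG00000048163.13) lies on chromosome 5 from 113818536 to 113832644.

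S1pr1, the exit receptor, was low and uneven between libraries. Treated libraries 1 to 3 had 2.25, 3.04 and 2.64 log2 CPM, and untreated libraries had 3.54, 2.49 and 3.30. Untreated library 2 was as low as the treated libraries, and the groups overlapped. The log2 fold change of -0.47 (SE 0.32, limma adjusted p = 0.276) had a 95% interval from -1.20 to 0.26, which holds changes from -56.5% to 20.1%. The residual SD was 0.48, at percentile 86.8 of all tested genes, and the estimated reads were 28 to 55 per treated and 36 to 92 per untreated library. Without untreated library 2 the log2 fold change was -0.78 (limma adjusted p = 0.0649), and without untreated library 1 it was -0.25 (0.562). S1pr1 (ENSMUSG00000045092.8) lies on chromosome 3 from 115710433 to 115715072.

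Ccr7, the receptor for the lymph node chemokines CCL19 and CCL21, did not pass. Its values of 5.01, 5.39 and 5.33 log2 CPM in treated libraries overlapped with the 5.37, 4.93 and 5.205 of untreated libraries. The log2 fold change was 0.08 (SE 0.15, limma adjusted p = 0.703), and its 95% interval of -0.27 to 0.43 holds changes from -16.9% to 34.3%. Its sign turned without untreated library 2 (-0.04). Ccr7 (ENSMUSG00000037944.8) lies on chromosome 11 from 99144196 to 99155077. The 3 chemokine receptor genes therefore differed in their values, with Cxcr4 and Ccr9 past the threshold and Ccr7 not; the differences between them were not tested.

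None of the 4 integrin chains passed the threshold. Itgal encodes the alpha chain and Itgb2 the beta chain of LFA-1, which binds ICAM proteins. Itgal was at 6.28, 6.08 and 6.04 log2 CPM in treated and at 6.45, 6.21 and 6.39 in untreated libraries. The lowest untreated value lay below the highest treated one, and the log2 fold change of -0.21 (SE 0.10, limma adjusted p = 0.139) had a 95% interval of -0.45 to 0.03. Itgb2 showed 3.98, 4.19 and 4.34 log2 CPM in treated and 4.05, 3.62 and 3.51 in untreated libraries, its overlap coming from untreated library 1 alone. Its log2 fold change was 0.44 (SE 0.18, limma adjusted p = 0.0850, 95% interval 0.03 to 0.85), and without untreated library 1 it was 0.60 and passed (0.0179). The genes lie on chromosome 7 from 127296260 to 127335138 (Itgal, ENSMUSG00000030830.18) and on chromosome 10 from 77530252 to 77565708 (Itgb2, ENSMUSG00000000290.13).

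Itga4 and Itgb7 together form alpha4beta7, which binds MAdCAM-1 on gut vessels, and Itga4 also pairs with Itgb1 as VLA-4, which binds VCAM-1. Itga4 values were 5.03, 4.93 and 4.76 log2 CPM in treated and 5.25, 4.995 and 4.74 in untreated libraries, with treated values inside the untreated range. Its log2 fold change of -0.09 (SE 0.15, limma adjusted p = 0.677, 95% interval -0.43 to 0.26) turned to 0.04 without untreated library 1. Itgb7 had 3.03, 3.12 and 3.11 log2 CPM in treated and 3.59, 3.44 and 3.43 in untreated libraries. Those groups were clearly apart, and the residual SD of 0.074 was among the lowest (percentile 7.5). Even so, the log2 fold change of -0.40 (SE 0.14, 95% interval -0.71 to -0.08) just missed the threshold (limma adjusted p = 0.0505). That SE draws partly on the spread of other genes at a like level, not on Itgb7 alone. Across alternative settings the limma adjusted p of Itgb7 ran from 0.0253 (no mean-variance trend) to 0.125 (without treated library 1). An estimated 49 to 95 reads per library stood behind Itgb7. Itga4 (ENSMUSG00000027009.18) is on chromosome 2 from 79255426 to 79333123 and Itgb7 (ENSMUSG00000001281.10) on chromosome 15 from 102215995 to 102231944. Within 500 bases of the 3' end of Itgb7 lies Zfp740 on the opposite strand (log2 fold change -0.03, limma adjusted p = 0.862), and the end of Itga4 lies in the opposite-strand gene Cerkl, which had no value in this table.

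Because an integrin needs both chains, the difference between alpha and beta chain was also compared within each library. For LFA-1, Itgal minus Itgb2 was 2.30, 1.89 and 1.70 in treated and 2.39, 2.58 and 2.88 in untreated libraries on the log2 scale. Treated libraries were all lower, with means of 1.96 ± 0.31 and 2.62 ± 0.24 (SD, n = 3) and a change of -0.66 (two-sided exact permutation p = 0.1). That p is the smallest that 3 against 3 libraries can give, so this test could not pass. For alpha4beta7, Itga4 minus Itgb7 moved from 1.51 ± 0.18 to 1.82 ± 0.18 (SD, n = 3; change 0.31, exact permutation p = 0.2), and for VLA-4, Itga4 minus Itgb1 moved from -2.24 ± 0.33 to -1.91 ± 0.10 (change 0.33, exact permutation p = 0.3). In both of these the groups overlapped, and the VLA-4 change was 0.51 without untreated library 1 and 0.18 without untreated library 3. Adjusted over the 3 pairs, each p was 0.3.

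**Figure D3:**
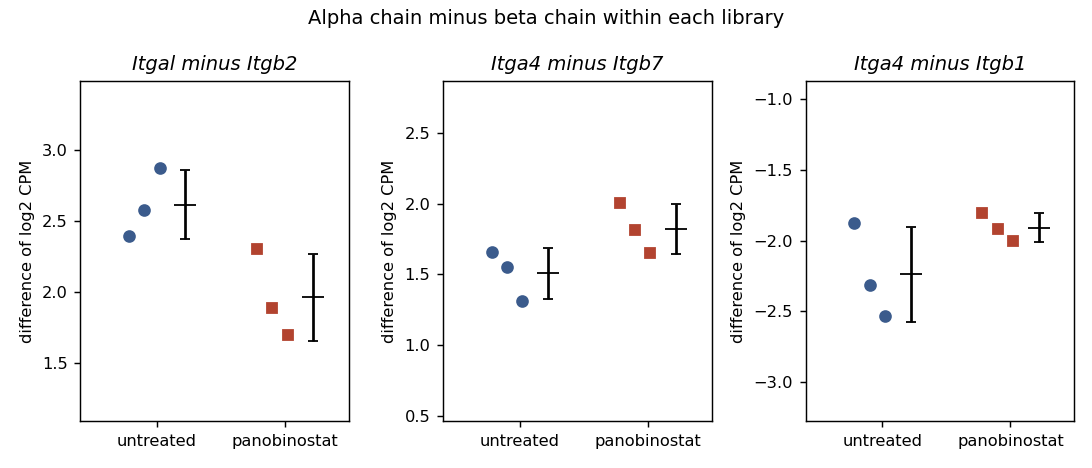
Alpha minus beta chain (difference of log2 CPM) in each library for LFA-1 (Itgal and Itgb2), alpha4beta7 (Itga4 and Itgb7) and VLA-4 (Itga4 and Itgb1), with the mean and SD in black. Only for LFA-1 are the treated libraries all on one side of the untreated ones, at 1.70 to 2.30 against 2.39 to 2.88.

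For the 3 members with the largest log2 fold changes, the genes most like them over the 6 libraries were sought among genes at or above the median level, by the Euclidean distance between values centred on each gene's mean. Those nearest to Ccr9 were Rnf125, a ubiquitin ligase gene (distance 0.312, log2 fold change -1.80), and Ramp3, which encodes a partner of peptide hormone receptors (0.346, -1.998). Nearest to Cxcr4 were the thymidine kinase gene Tk1 (distance 0.147, log2 fold change -0.71) and Smco4 (0.164, -0.76). S1pr1 was followed by Zfp422 (0.351, -0.52) and Tgif1 (0.460, -0.56). Zfp422 and Tgif1, like S1pr1, did not pass with all libraries (limma adjusted p = 0.1004 and 0.0857). Without untreated library 2 they passed (log2 fold changes -0.78 and -0.83) and S1pr1 did not, and since they were chosen for their likeness to S1pr1 over these libraries, nothing is read from that. Nor is anything read from the like log2 fold changes of the genes nearest to Ccr9 and Cxcr4, which follow from the same choice.

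The wider homing machinery was described with 9 gene lists. Of the 192 genes listed, 148 were tested. Among those tested 28 rose and 38 fell, so that 44.6% were called beside 38.3% of all genes. The number called was 65 without untreated library 1 and 43 without untreated library 3, fits in which 5233 and 3384 of all genes were called in place of 4806. Of the 20 other chemokine receptors listed, 10 had a row and 7 were tested. Among these 0 rose and 4 fell of 7 tested, with a median log2 fold change of -1.06 (2 fell without treated library 2, untreated library 2 or untreated library 3). The fractalkine receptor gene Cx3cr1 (-1.44, SE 0.28) and Ccr6, the receptor for CCL20 (-1.06, SE 0.20), fell in each of the 6 leave-one-out fits, whereas the calls of Ccr4 (-1.24) and Ccrl2 (-1.18) were lost in 4 and 5 of those 6 fits (-1.19 to -0.99 and -1.40 to -0.93). All 4 were low, at or under 3.83 log2 CPM in untreated cells. In the list of selectins and enzymes that make their ligands 1 rose and 3 fell of 14 tested, with a median of -0.22. The sulphotransferase gene Chst2 fell (-1.02, SE 0.22), Cd24a fell (-0.35, SE 0.08; -0.28 and not called without treated library 3), and the tyrosine sulphotransferase gene Tpst1 rose (0.998, SE 0.27; call lost in 3 of the 6 fits, 0.86 to 0.87). The hyaluronan receptor gene Cd44 stood at 0.32 (limma adjusted p = 0.175).

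Of the other S1P receptors and enzymes of this lipid, 2 rose and 1 fell among 10 tested, with a median of 0.01. Sgpp1, a phosphatase that degrades sphingosine 1-phosphate, rose (1.19, SE 0.22, limma adjusted p = 0.00498). The receptor gene S1pr4 (-0.65) and the lyase gene Sgpl1 (0.39) passed, but these calls were lost in 5 and 6 of the 6 leave-one-out fits (-0.74 to -0.56 and 0.33 to 0.45). Sphk2, at 0.16, did not pass (limma adjusted p = 0.310). Cd69, whose product holds S1PR1 inside the cell, stood at 0.008 (limma adjusted p = 0.985), a value that turned without treated library 2 (-0.08) or untreated library 3 (-0.28). Of the transcription factors tied to homing receptors 5 rose and 3 fell of 19 tested (median 0.10; 2 rose without treated library 1 or 2). Klf2, an activator of S1pr1 in T cells, rose by 0.51 (limma adjusted p = 0.0489), but did not pass in 5 of the 6 leave-one-out fits (0.36 to 0.57). Foxo1, which acts upstream of Klf2 and Ccr7, rose by 0.33 (limma adjusted p = 0.0190; lost in 2 of 6 fits, 0.30 to 0.32). Irf4 (1.36, SE 0.11) and Tcf7 (1.27, SE 0.14) rose, and Runx3 (-0.64, SE 0.10) and Satb1 (-0.45, SE 0.08) fell.

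Other integrin subunits gave 0 rose and 2 fell of 10 tested (median -0.32), namely Itgb1, the partner of Itga4 in VLA-4 (-0.42, SE 0.08, limma adjusted p = 0.00546), and Itgb3 (-1.12, SE 0.16). Itgae had no tested row, Itgam stood at -0.62 (limma adjusted p = 0.0967), and Itgav stood at -0.81 (0.0595) and passed without treated library 1 (-1.08). Genes that switch integrins on or off, or act as their adaptors, went both ways, 9 up and 8 down of 29 tested (median -0.07; 5 up and 5 down without untreated library 3, and 6 up and 4 down without treated library 1 or untreated library 2). The exchange factor gene Cyth1 (1.33, SE 0.15) and the Rap1 inactivator gene Sipa1 (0.89, SE 0.11) rose. Rassf5, which encodes the Rap1 effector RAPL (-0.73, SE 0.12), and Cytip, a partner of cytohesin-1 (-0.63, SE 0.10), fell. The talin gene Tln1 (-0.18) and the kindlin-3 gene Fermt3 (0.26) did not pass (limma adjusted p = 0.0919 and 0.172), and Tln1 passed without untreated library 1 (-0.23). Signalling and arrest genes of chemoattractant receptors included 9 that rose and 6 that fell of 25 tested (median 0.31; 5 rose without treated library 3). The receptor kinase gene Grk2 (-0.66, SE 0.08), the arrestin gene Arrb1 (-0.81, SE 0.10) and Rgs3, a regulator of G protein signalling (-1.12, SE 0.15), fell, and the phospholipase gene Plcb3 rose (1.14, SE 0.14).

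Of the motility genes 1 rose and 8 fell of 24 tested (median -0.20; 4 fell without treated library 3 or untreated library 3, and 9 without untreated library 1). The haematopoietic GTPase gene Rhoh (-1.02, SE 0.09), the exchange factor gene Dock8 (-1.06, SE 0.12), the cytoskeletal linker gene Rdx (-0.49, SE 0.07) and Cd47 (-0.41, SE 0.07) fell. Ligands and counter-receptors gave 1 rise and 3 falls of 10 tested (median -0.14). The LFA-1 ligand gene Icam2 fell (-1.12, SE 0.13), as did Icam4 (-0.72, SE 0.14). Icam1 rose (0.65) and Cd34 fell (-0.97), but these calls were lost in 5 and 6 of the 6 fits (0.52 to 0.67 and -1.14 to -0.83).

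**Figure D4:**
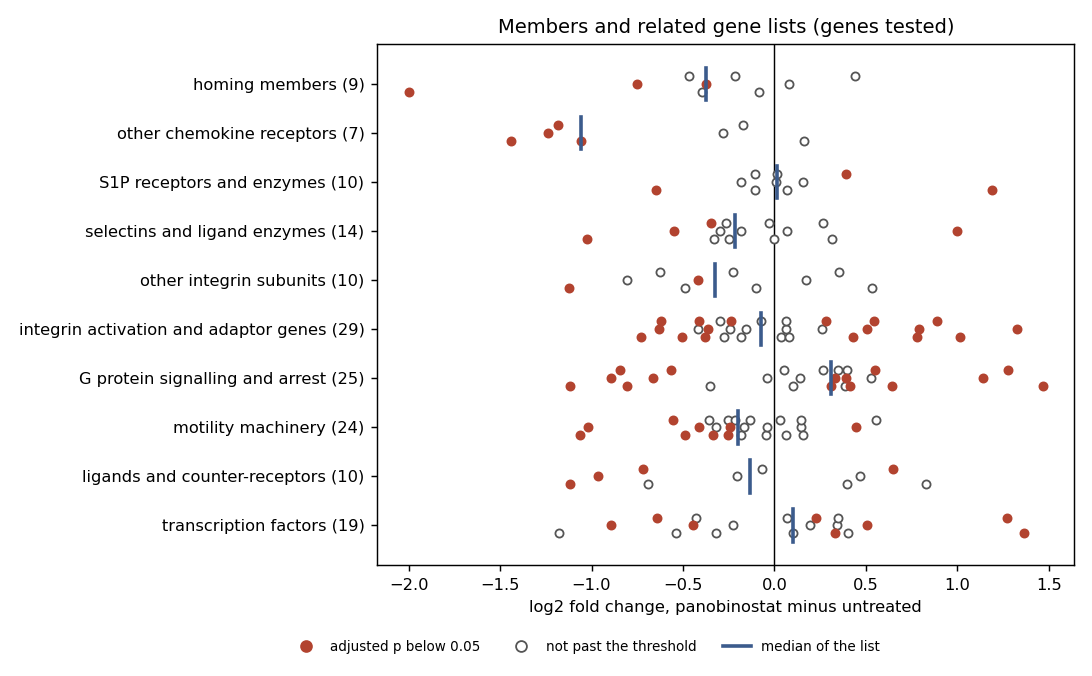
Log2 fold change of every tested gene of the homing members and of 9 related lists (one point per gene, number tested in brackets, blue bar at the list median); filled points passed an adjusted p of 0.05. The other chemokine receptors (7 tested of 20 listed) have the lowest median (-1.06), and signalling and arrest genes the highest (0.31).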

How the data were processed

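RNA was isolated on columns, and 3' end libraries were made from 100 ng of total RNA with the QuantSeq kit, per the labels' protocols. The submitters' processing notes name cutadapt 1.9, HISAT2 2.1.0, featureCounts (Subread 1.5.0), limma and build mm10; the sources used here do not give annotation, strand setting or filters. The authors deposited log2 values, read here as normalized log2 CPM because their powers of 2 sum to 994114.4 to 994181.8 per library. All 6 columns were matched to samples by the S number in their titles; library numbers come from the column names.

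Rows whose mean log2 over all 6 libraries was under 0 were left out (631), and the rest were tested with limma 3.58.1 in R 4.3.3 (lmFit, eBayes with a mean-variance trend, Benjamini-Hochberg over all genes tested, 2-sided, threshold 0.05), without a pseudocount. The comparison had 3 panobinostat and 3 untreated libraries. Members, lists, motifs and tests were chosen with earlier results of these data known. Beside the members, the text names the up to 4 best-ranked genes by adjusted p in each list, and always Cd69, Cd44, Itgb1, Itgae, Klf2, Foxo1, S1pr4, Fermt3 and Tln1; Lztfl1, Zfp740 and Cerkl were named for their position. A gene that the rule also names is not reported here. Reads were estimated from the rank of a value among a library's distinct values up to 300, and above that from reads per CPM. Levels are not per length, and words such as low or well expressed refer only to the log2 CPM given with them. Differences between alpha and beta chain were compared between groups and not read as amounts of each chain. Gene positions came from GENCODE M21 on the same build; RefSeq promoters existed for 4 members. The scripts were tested on simulated data. The simulated counts for the read estimate were not quantile normalized, so the estimate was not tested under that scaling. Python 3.11.15, pandas 2.3.3 and matplotlib 3.10.9 served for annotation and figures. Alternatives were other filters, scalings, spread models, weights, a pseudocount, a stricter threshold, a block and leaving out each library.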

Additional observations from a re-analysis of the deposited data

How the results depend on the processing

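The calls of Cxcr4, Ccr9 and Selplg held in every alternative in which the gene was tested (log2 fold changes -0.85 to -0.68, -2.15 to -1.18 and -0.43 to -0.33); Ccr9 was not tested with a minimum mean log2 of 2. Of 143 member values under alternatives, 135 kept their direction and side of the threshold. With array weights 5 members were called (and 6107 of all genes in place of 4806), with Itgb2 (0.59) and Itgb7 (-0.36) added, and Itga4 turned to 0.053. Itgb7 (-0.40) also passed with a minimum mean log2 of 2 and without a mean-variance trend. At a threshold of 0.01, 2513 genes were called, with the same 3 members called. With 1 library left out Itgb2 ran from 0.33 to 0.60, Itga4 from -0.22 to 0.043 and Ccr7 from -0.039 to 0.20. The table's columns number the libraries 1 to 3 in each group, but all 6 sample titles carry the number 1; deviations of same-numbered libraries correlated at -0.0444, 0.104 and -0.0108, so they were not taken as pairs. The replicate block called 4148 genes and the same 3 members. Of 795 values of the 50 other named genes 719 were unaffected in direction and call; the 5 that turned were those of Cd69 (-0.002 with a pseudocount of 1, -0.08 without treated library 2 and -0.28 without untreated library 3; -0.28 to 0.24 with 1 library left out) and Zfp740 (0.044 with array weights and 0.11 without untreated library 1; -0.12 to 0.11 with 1 library left out). Leaving out an untreated or treated library leaves 2 in that group, whose spread is then assumed like that of the other. Alternatives for related genes, lists and integrin chain differences were chosen after seeing the data. The lowest estimated reads per library were 4 for Ccr9, 28 for S1pr1 and 49 for Itgb7.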
